A study of Mus musculus with 18 samples.

Results

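The synaptic vesicle exocytosis machinery was followed here in the mouse hippocampus through 68 genes, taken from the 15329 genes of the deposited table by symbol alone. The symbols are those of the synaptotagmins (Syt), syntaxins (Stx), syntaxin-binding proteins (Stxbp), vesicle-associated membrane proteins (Vamp), SNAP proteins (Snap), complexins (Cplx) and RIM proteins (Rims), followed by a number. Rab3a to Rab3d, Unc13a to Unc13c, Sv2a to Sv2c, Syn1 to Syn3 and Syp complete the set. The symbol rule also took in Snap91, which encodes the clathrin assembly protein AP180 and is not a SNARE. Poly(A) RNA of the hippocampus of 18 C57BL/6J mice aged 8 to 10 weeks was sequenced, with 1 library for each mouse. The mice made up 6 groups of 3. WT mice and Ccny knockout (KO) mice, which are meant to lack cyclin Y, either stayed untrained (the WT_Basal and KO_Basal groups) or learned to find a hidden platform in the Morris water maze. Training ended with this original learning in WT_OL and KO_OL, and went on in WT_RL and KO_RL to reversal learning, in which the platform was moved. How the knockout allele was made is not given in the sources used here, and sex was not given in the labels used here. The comparisons ask what training does to transcript levels in each genotype and whether the genotypes differ at each stage.

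Neurotransmitter release needs a vesicle SNARE such as synaptobrevin to zip up with plasma membrane syntaxin and SNAP-25, a step that Munc13 (Unc13) proteins prepare and complexins hold ready. Calcium bound by synaptotagmin then triggers fusion, and RIM and Rab3 proteins tie the docked vesicle to the active zone next to calcium channels. Other syntaxins and SNAREs of the same families work away from the synapse, in endosomes, the Golgi apparatus and autophagosomes. By role the 68 genes fell into 8 plasma membrane syntaxins and SNAP-25 type SNAREs, 6 vesicle SNAREs, 7 syntaxin-binding proteins, 3 complexins, 8 calcium-sensing synaptotagmins, 8 other synaptotagmins, 11 docking and priming proteins, 7 vesicle membrane and coat proteins, 9 endosomal, Golgi and autophagosomal SNAREs, and Snap91.

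Values are CPM, the reads of a gene scaled to the size of its library. The table accounts for 29248557 to 31509208 reads in each library of untrained mice and 31830344 to 37915576 in each library of trained mice. Read depth thus went with training, without overlap, in every comparison of trained with untrained mice. The part of depth in the member changes was not tested. Ccny itself was at 107 to 158 CPM in the 9 WT libraries and at 74.0 to 95.8 CPM in the 9 KO libraries, so the groups did not overlap, while reads on the gene remained in every KO library. Markers of dentate granule neurons (Prox1, C1ql2 and Dsp, summed 110 to 295 CPM) and of CA1 pyramidal neurons (Wfs1, Fibcd1 and Pou3f1, summed 217 to 461 CPM) were found in each library. Summed markers of choroid plexus epithelium ran from 43.5 to 8355 CPM, and those of hypothalamic neurons reached 83.5 CPM in KO_Basal replicate 1 against at most 8.16 CPM elsewhere. Summed microglia markers ran from 219 to 300.2 CPM and summed oligodendrocyte markers from 4368 to 9808 CPM. Pituitary markers (Gh and Prl) summed to 35.8 CPM in WT_Basal replicate 2, 8.31 CPM in WT_Basal replicate 3 and at most 2.80 CPM elsewhere. The library WT_OL replicate 2 stood apart. It held the lowest value of all 18 libraries for 24 of the 68 members (35.3%), a share that was 24.0% over all genes with a mean of at least 1 CPM, and the highest for 11. The members together gave 14675 CPM in this library and 17039 to 20227 CPM in the other 17. Its log2 difference from the other WT_OL mice ran with gene length, with a Spearman correlation across genes of -0.44 with transcript length over the 68 members and -0.55 over 13901 genes. Several calls, counts and changes in which this library weighed are given also without it, as differences of group means where no test is named. Those of Stx5a, Syt16, the cell type markers and the further gene lists are given with it only. In whole tissue, fewer cells of a type and less RNA per cell cannot be told apart.

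The most abundant members were those of the vesicle and of the core fusion complex. Levels of different genes were compared as CPM per kb of the longest annotated transcript. Synaptophysin (Syp), a membrane protein of every synaptic vesicle, led with 564 CPM per kb (SD 46.2 over 18 mice) and was above the next gene in 18 of 18 mice. The pair that followed was the SNAREs Snap25 at 445 CPM per kb (SD 59.8) and Vamp2, or synaptobrevin 2, at 443 (SD 28.2). These neighbours did not separate, since Snap25 was the higher of the pair in 10 of 18 mice. Complexin Cplx2 at 339 and Syt1, the main calcium sensor of fast release, at 324 CPM per kb changed places between mice too, with Cplx2 higher in 10. Syt1 and the vesicle GTPase Rab3a, at 311 CPM per kb, were again close, with Syt1 higher in 12 mice. Cplx1 (250), synapsin Syn1 (163) and Sv2a (98.8 CPM per kb) were lower among the core members. The plasma membrane syntaxin Stx1a (51.1) was nearly an order of magnitude below its partner Snap25. The priming factor Unc13a (33.3) and the active zone scaffold Rims1 (19.3 CPM per kb) stood last among the core members.

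**Figure D1:**
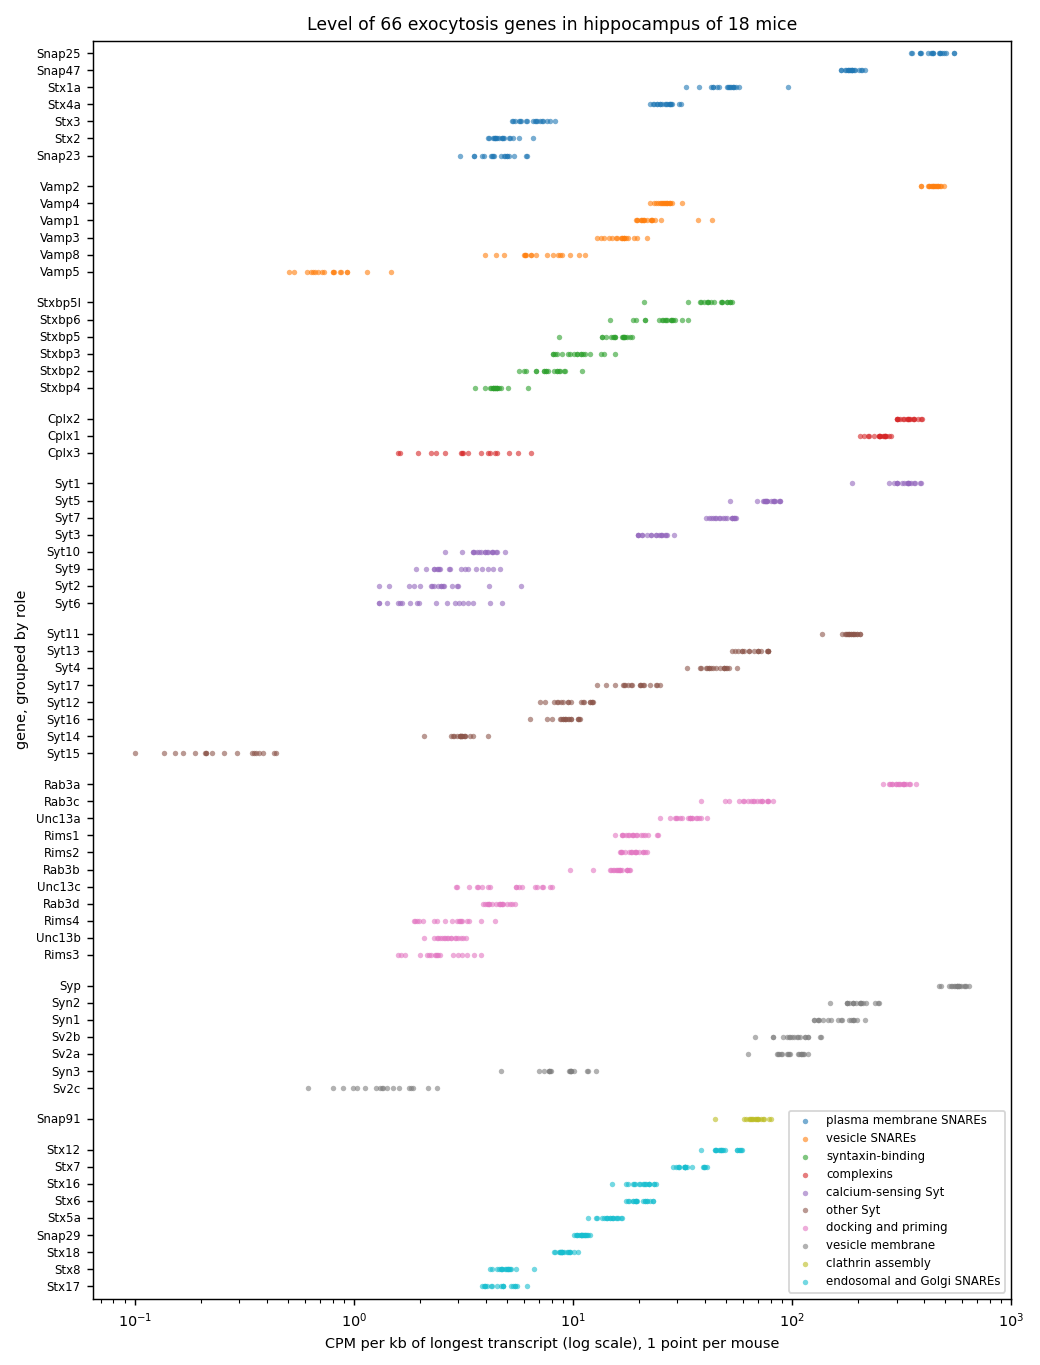
Level of 66 members as CPM per kb of the longest transcript, on a log axis, with 1 point per mouse and the genes grouped by role. The levels run from Syp at 564 CPM per kb to Syt15 at 0.268 CPM per kb on average.

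The set spanned over 3 orders of magnitude per kb. In CPM, 4 members had a mean of at least 1000, 30 of at least 100 and 65 of at least 10, and only Syt15 lay under 1 CPM on average, with no library under 12 reads for any member. In some families a single gene stood far above the rest. Among vesicle SNAREs, Vamp2 at 443 CPM per kb stood over Vamp4 (26.2), Vamp1 (23.7), Vamp3 (16.6), Vamp8 (7.26) and Vamp5 (0.799). Among calcium-sensing synaptotagmins, Syt1 stood over Syt5 (77.9), Syt7 (48.8), Syt3 (23.7), Syt10 (3.91), Syt2 (2.58) and Syt6 (2.47 CPM per kb). Syt2 is the fast sensor of other brain regions and of some interneurons, and Syt9, the remaining one, lay between Syt10 and Syt2. In other families the leading pair was closer, with Cplx2 at 339 and Cplx1 at 250, Syn2 at 201 and Syn1 at 163, and Sv2b at 104 and Sv2a at 98.8 CPM per kb. Syt11, a form that does not sense calcium, was the most abundant of the other synaptotagmins at 184 CPM per kb.

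Across the 6 groups most members moved little. The range of the 6 group means had a median of 0.37 on the log2 scale over the 65 members with a mean of at least 10 CPM, and 0.32 over the 10214 genes at or above that level. The least variable members were Snap29, a SNARE of autophagosome fusion, with a range of 0.11, Rab3d with 0.12 and the endoplasmic reticulum syntaxin Stx18 with 0.12. Snap29 stayed between 34.8 and 41.1 CPM in all 18 mice. The most variable were Syt2 with 1.05, Sv2c with 0.86 and Syt6 with 0.85, all 3 genes of low level here. Sv2c, with its lowest group mean in WT_OL and its highest in KO_RL, was called in no comparison. It was at 10.2, 5.61 and 12.2 CPM in WT_OL, with the low value in replicate 2. The other WT_OL mice lay above the KO_Basal mean of 9.57 CPM. The lowest place of WT_OL and part of the Sv2c range thus rested on WT_OL replicate 2. Syt6 too had its lowest value of the 18 mice, 5.73 CPM, in that library. Core members varied over the 18 mice by 1.27-fold for Vamp2, 1.31-fold for Cplx2 and 1.37-fold for Syp, and by 2.05-fold for Syt1 and 2.91-fold for Stx1a. Much of the wide range of the last pair came from 1 mouse, though the lowest Stx1a value, 71.5 CPM, was in WT_RL replicate 3. WT_OL replicate 2 had the lowest Syt1 value, 908 CPM against 1329.5 to 1862 elsewhere, and the highest Stx1a value, 208 CPM against 71.5 to 123.6 elsewhere.

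Original learning changed few members in WT mice. A gene was called when its Benjamini-Hochberg adjusted p from limma, over all 15329 genes, was under 0.05, and log2 changes are given with their standard error (SE). In WT_OL against WT_Basal, 4 members rose and 1 fell, 7.35% of 68, where 9.5% of all genes were called (3.88% higher and 5.62% lower). The median change over the members was -0.06, and -0.01 without WT_OL replicate 2. Among the risers were 3 of the 4 RIM genes, and the gene that fell was Stx12, an endosomal syntaxin. Markers moved with this comparison too. The neuronal marker Tubb3, the astrocyte marker Aldh1l1, the microglia markers Csf1r and Tmem119 and the endothelial marker Flt1 rose, by 0.29 to 0.49 on the log2 scale, while P2ry12 of microglia (-0.52) fell. Their lists hold 4 or 5 markers each, which did not all move alike. Endothelial Cldn5 was at 31.1, 37.3 and 32.0 CPM in WT_Basal and 27.9, 32.6 and 26.5 CPM in WT_OL. Neuronal Rbfox3 was at 207, 245 and 223 CPM in WT_Basal and 202, 177 and 233 CPM in WT_OL. The pituitary marker Gh, at 0.0666, 32.3 and 7.32 CPM in WT_Basal and 0 CPM in each WT_OL mouse, was called lower. The part of these cells in the member changes was not tested.

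Rims4 and Rims3 encode short RIM proteins that carry the C-terminal C2 domain without the Rab3-binding part of Rims1. Rims4 was at 9.32, 9.39 and 9.84 CPM in WT_Basal and at 16.3, 21.8 and 15.2 CPM in WT_OL. The groups did not overlap, and the log2 change was 0.82 (SE 0.15, limma adjusted p = 0.00300). Rims3 stood at 10.4, 10.7 and 13.0 CPM before training and 20.3, 24.8 and 15.3 CPM after it, a log2 change of 0.76 (SE 0.17, limma adjusted p = 0.0126). Both were highest in WT_OL replicate 2. Rims1, the long scaffold, was at 109.5, 100.6 and 108 CPM in WT_Basal and 137, 158 and 121 CPM in WT_OL, a smaller change of 0.38 (SE 0.11, limma adjusted p = 0.0421), again with its highest value in that library. Without WT_OL replicate 2 the changes were 0.67 for Rims4, which was still called (limma adjusted p = 0.0132), 0.60 for Rims3 and 0.28 for Rims1, which were not. The Rims3 call was lost also without WT_Basal replicate 1, and the Rims1 call without any one of 5 of the 6 libraries. The number of members called was 3 without WT_OL replicate 2, as it was without WT_Basal replicate 1. Without WT_OL replicate 3 it was 13. No share over all genes is given for these counts. Rims2, the remaining RIM gene, was at 92.1 to 100.2 CPM in WT_Basal and 80.2 to 88.6 CPM in WT_OL and was not called.

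Stx12, which serves in recycling endosomes, stood at 165, 171 and 174 CPM untrained and at 131, 113 and 138 CPM after original learning, a change of -0.42 (SE 0.07, limma adjusted p = 0.00196) that was -0.34 and still called without WT_OL replicate 2. Stx1a, at 81.3, 94.1 and 98.6 CPM in WT_Basal and 116, 208 and 109 CPM in WT_OL, did not overlap between the groups but was not called (log2 change 0.60, limma adjusted p = 0.0853), and without WT_OL replicate 2 its change was 0.30. With only the 6 libraries of this comparison in the fit, limma called 0 members. In the fit of all 18 libraries 16 members had an unadjusted p under 0.05, beside 25.9% of all genes.

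KO mice showed more calls after original learning. In KO_OL against KO_Basal 5 members rose and 6 fell, 16.2% of 68, where 23.5% of all genes were called (11.2% higher and 12.3% lower). Among the members that rose were Syn1, Syt12 and Syt3, and all 6 that fell were syntaxins, namely Stx3, Stx17, Stx5a, Stx7, Stx4a and Stx12. Of these syntaxins 4 belong to the 9 endosomal, Golgi and autophagosomal SNAREs, none of which rose. With 9 genes, the lack of risers is near the 11.2% of all genes called higher. Choroid plexus markers moved with this comparison. All 7 of 7 rose, with summed levels of 46.9 to 662 CPM in KO_Basal and 2384 to 4609 CPM in KO_OL, and no marker was at 0 in any library. The neuronal markers Tubb3 and Nefl, 2 of 4 in their list, rose as well, with summed levels of 4704 to 5462 CPM and 4920 to 5802 CPM. Of the other marker lists, Fibcd1 of CA1 neurons (0.82) and Slc32a1 of interneurons (0.44) rose, while Vip of interneurons (-0.76), Aqp4 of astrocytes (-0.52), P2ry12 (-0.91) and Aif1 (-0.62) of microglia and Cldn5 of endothelial cells (-0.66) fell. The part of these cells in the member changes was not tested.

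Syn1 encodes synapsin I, which tethers vesicles to one another and to actin. It was at 429, 429.8 and 452 CPM in KO_Basal and at 701, 605 and 623 CPM in KO_OL, with no overlap and the largest rise among the members called, 0.55 (SE 0.12, limma adjusted p = 0.00304). Syt12, a vesicle synaptotagmin that does not bind calcium, stood at 26.7, 32.2 and 25.3 CPM and at 43.0, 40.5 and 35.3 CPM (log2 change 0.48, SE 0.09, limma adjusted p = 0.00140). All trained KO mice lay above all untrained ones for these genes. Syt3 changed by 0.37 (SE 0.10, limma adjusted p = 0.0114), a call that was lost without KO_Basal replicate 1 or KO_OL replicate 1.

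Among the syntaxins that fell, Stx5a, the Golgi syntaxin, was at 48.0, 49.98 and 48.5 CPM in KO_Basal and 35.5, 38.9 and 38.3 CPM in KO_OL, a change of -0.37 (SE 0.07, limma adjusted p = 0.00156). In WT mice the same gene was at 44.4 to 45.9 CPM untrained and 43.2 to 50.6 CPM after original learning (log2 change 0.01, limma adjusted p = 0.955). The highest of these values, 50.6 CPM, was in WT_OL replicate 2. The change in KO mice less that in WT mice was -0.38 (SE 0.10, limma adjusted p = 0.388) and did not pass the test. Stx3, a plasma membrane syntaxin linked to postsynaptic exocytosis, changed by -0.44 (SE 0.12, limma adjusted p = 0.0127), from 22.5, 23.3 and 24.1 CPM to 16.3, 17.8 and 16.7 CPM. Stx4a, its other plasma membrane relative, changed by -0.31 (SE 0.08, limma adjusted p = 0.00743). Stx17 changed by -0.39 (SE 0.09, limma adjusted p = 0.00429), Stx7 by -0.36 (SE 0.07, limma adjusted p = 0.00132) and Stx12 by -0.28 (SE 0.07, limma adjusted p = 0.00933), the last not called without KO_OL replicate 3. Whether the counting used strand is not given, which bears on genes with a neighbour on the other strand. Syn1 (chrX:20860511-20921004, minus strand, GRCm38) overlaps exons of Araf on the other strand, and Stx4a too has such a neighbour. Exons of Syt12, Syt4 and Syt7 overlap noncoding genes on the other strand that the table does not list.

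**Figure D2:**
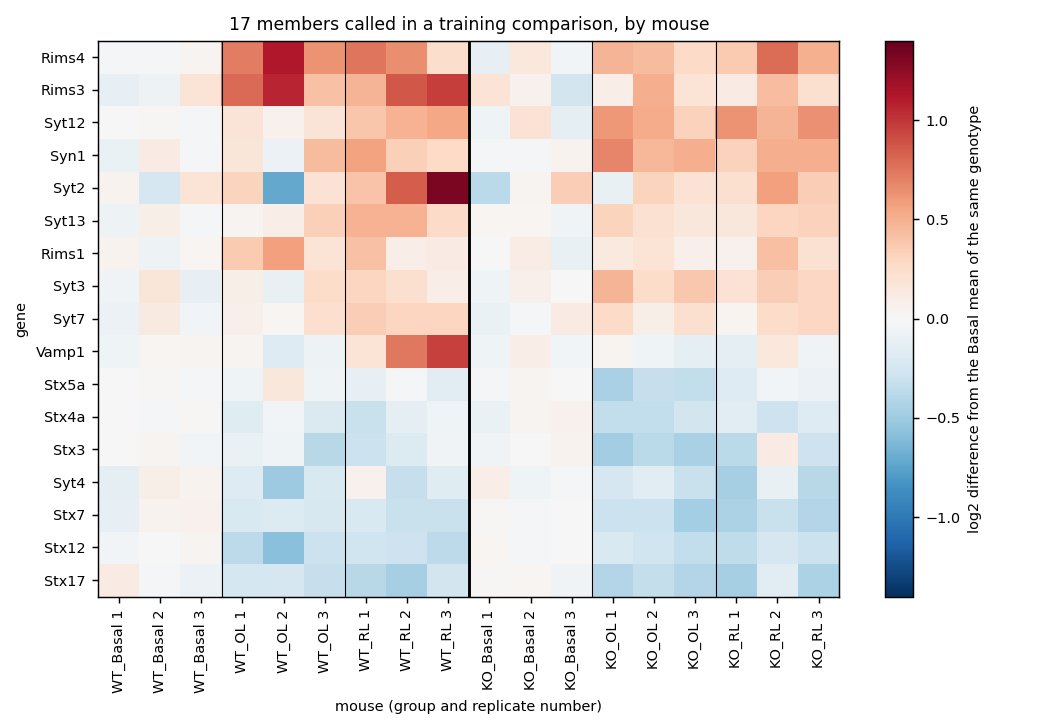
Log2 difference of each mouse from the Basal mean of its own genotype, for 17 of the 19 members called in at least 1 training comparison with Basal, ordered by their mean change. Red is higher and blue is lower. Vamp1 and Syt2 are high in WT_RL replicates 2 and 3, and WT_OL replicate 2 shows the highest Rims3 and Rims4 together with a low Syt2.

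Mice that had gone through both original and reversal learning were compared with untrained mice as well. In WT_RL against WT_Basal 10 members rose and 3 fell, 19.1% of 68 beside 15.7% of all genes (8.28% higher and 7.42% lower). In KO_RL against KO_Basal 7 rose and 4 fell, 16.2% beside 23.6% of all genes (11.6% higher and 12% lower). Without WT_Basal replicate 1 the WT count was 7 and without WT_Basal replicate 3 it was 8, and without KO_Basal replicate 1 the KO count was 6 and without KO_RL replicate 3 it was 7. Shares over all genes are not given for these counts with a library left out. The WT and KO comparisons share no library. Of the members called, 9 were called in both genotypes and in the same direction, which is 69.2% of the 13 in WT mice and 81.8% of the 11 in KO mice. Over all genes the shared calls were 71.5% of the WT list and 47.7% of the KO list. Among those shared were Rims4, Syt12, Syt13 and Syn1, which rose, and Stx7, Stx12 and Stx17, which fell. No member was called in opposite directions.

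Syt12 was at 30.3, 30.5 and 29.5 CPM in WT_Basal and 39.8, 42.7 and 44.1 CPM in WT_RL (log2 change 0.47, SE 0.09, limma adjusted p = 0.00289). In KO mice it was at 26.7, 32.2 and 25.3 CPM in KO_Basal and 43.7, 39.1 and 44.0 CPM in KO_RL (log2 change 0.58, SE 0.09, limma adjusted p = 0.000392). The groups were apart in both genotypes, and both calls held under each alternative listed in the closing section. Syt13, another synaptotagmin without calcium binding, stood at 199, 222 and 206 CPM in WT_Basal and 292, 294 and 251 CPM in WT_RL (log2 change 0.41, SE 0.09, limma adjusted p = 0.00482). In KO mice Syt13 went from 239.9, 239 and 226 CPM to 263, 289 and 293 CPM, a change of 0.26 (SE 0.09, limma adjusted p = 0.0396). This call in KO mice was lost without any one of 5 of the 6 libraries.

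Syn1 was at 409, 476 and 431 CPM in WT_Basal and 649, 550.4 and 531 CPM in WT_RL, a change of 0.39 (SE 0.12, limma adjusted p = 0.0314) whose call was lost without any one of 4 of the 6 libraries. In KO_RL it was at 547, 620.0 and 619.7 CPM, 0.44 above KO_Basal (SE 0.12, limma adjusted p = 0.0115). Of the WT_OL mice, at 492, 412 and 594 CPM, only replicate 2 overlapped with WT_Basal. The change in WT_OL against WT_Basal was 0.17 and not called, and it was 0.30 without WT_OL replicate 2.

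Stx12 fell in all 4 comparisons of trained with untrained mice. It stood at 140.1, 139 and 132 CPM in WT_RL (log2 change -0.31, SE 0.07, limma adjusted p = 0.00707) and at 131, 143 and 136 CPM in KO_RL against 171, 165 and 168 CPM in KO_Basal (-0.30, SE 0.07, limma adjusted p = 0.00573). Stx7, a late endosomal syntaxin, was at 119.9, 135 and 136 CPM in WT_Basal and 112, 105 and 105 CPM in WT_RL (-0.28, SE 0.07, limma adjusted p = 0.0111). In KO mice Stx7 fell from 140.0, 137 and 137 CPM to 101.4, 111 and 104 CPM (-0.39, SE 0.07, limma adjusted p = 0.000772). Stx17, the syntaxin of autophagosomes, was at 35.7, 32.1 and 30.8 CPM in WT_Basal and 24.8, 23.4 and 27.2 CPM in WT_RL (-0.37, SE 0.09, limma adjusted p = 0.00840), with a change of -0.35 (SE 0.09, limma adjusted p = 0.00742) in KO_RL. Without WT_Basal replicate 1 the call of Stx17 in WT mice was lost. All 3 are endosomal or autophagosomal SNAREs, a role with 9 members of which 0 rose in either genotype. With 9 genes, 0 is near the share of all genes called higher, 8.28% in WT_RL and 11.6% in KO_RL.

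**Figure D3:**
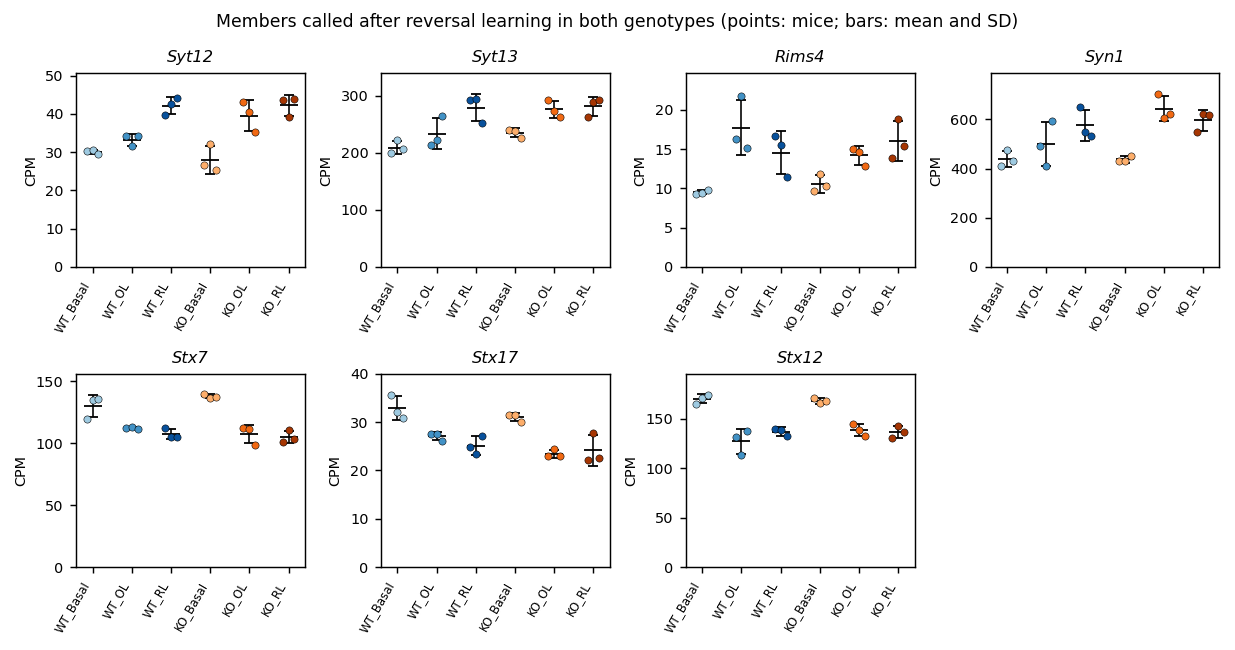
CPM in each mouse for 7 of the members called after reversal learning in both genotypes, with points for the 3 mice of a group and bars for the mean and SD, on axes that start at 0. In the first 4 panels every WT_RL and KO_RL mouse lies above the untrained mice of its genotype, and in the last 3 panels, for Stx7, Stx17 and Stx12, every one lies below.

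Rims4 rose by 0.55 on the log2 scale after reversal learning in both genotypes (SE 0.15 each, limma adjusted p = 0.0184 in WT and 0.0126 in KO mice), to 16.7, 15.6 and 11.48 CPM in WT_RL and 13.9, 18.8 and 15.4 CPM in KO_RL. Rims3 rose in WT_RL, at 16.1, 21.4 and 23.0 CPM (0.77, SE 0.17, limma adjusted p = 0.00765). In KO_RL it was at 14.6, 18.5 and 15.8 CPM, with a change of 0.25 that did not pass (limma adjusted p = 0.305). Syt7, the slow high-affinity calcium sensor of asynchronous release and vesicle replenishment, rose in WT_RL from 269, 309.9 and 276 CPM to 361, 351 and 352 CPM (0.32, SE 0.09, limma adjusted p = 0.0226). Its relative Syt3 rose in KO_RL by 0.28 (SE 0.10, limma adjusted p = 0.0471), and Syt4, an activity-regulated synaptotagmin of dense core vesicles, fell there by 0.32 on the log2 scale (SE 0.11, limma adjusted p = 0.0484). Not all of these calls were firm. In WT_RL those of Rims4 and Syt7 were each lost without any one of 4 of the 6 libraries, whereas that of Rims3 held without each. In KO_RL the call of Rims4 was lost without any one of 2 of the 6 libraries, that of Syt4 without any one of 5 and that of Syt3 without any one of 6. Choroid plexus markers rose in KO_RL too, 5 of 7, with summed levels of 1318 to 4971 CPM. In WT_RL 0 of 7 were called and their sums were 43.5, 843 and 8355 CPM. Among neuronal markers Tubb3 and Nefl rose in WT_RL and Nefl in KO_RL. Csf1r and Tmem119 of microglia and Lef1 of thalamic neurons also rose in WT_RL, and P2ry12 and Gh were called lower. In KO_RL Fibcd1 rose, and Aqp4 and the microglia markers Cx3cr1, P2ry12 and Aif1 fell. The part of these cells in the member changes was not tested.

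**Figure D4:**
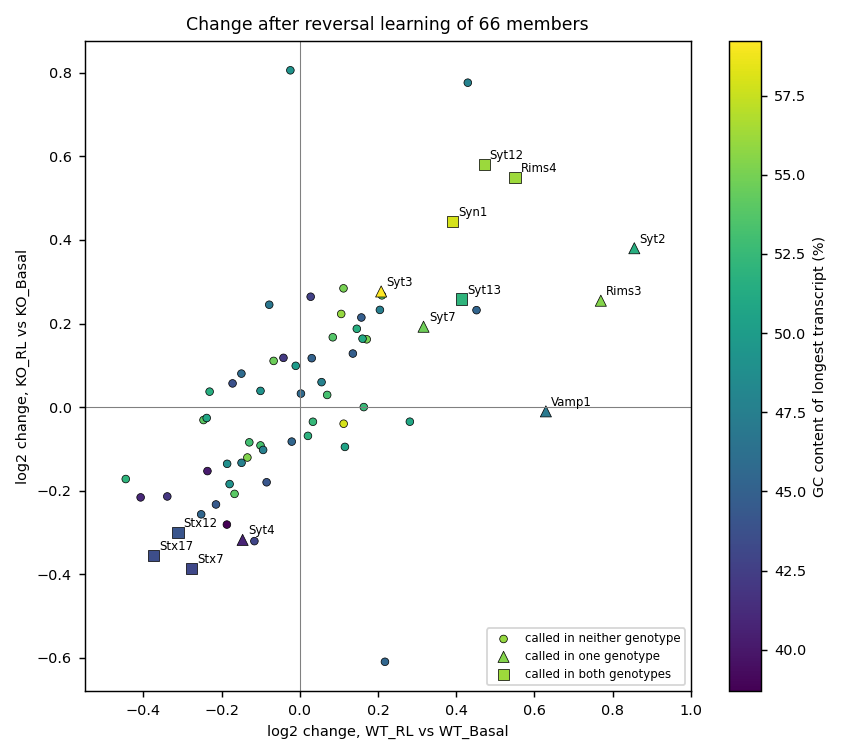
Log2 change after reversal learning in WT mice (x axis) and in KO mice (y axis) for 66 members, each against the untrained mice of its genotype, coloured by the GC content of the longest transcript. Squares mark members called in both genotypes and triangles those called in 1 genotype. Vamp1 lies at 0.63 in WT mice and -0.01 in KO mice.

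The members that rose and those that fell differed in base composition. The 12 members that rose in any comparison of trained with untrained mice had transcripts with a median GC content of 54.1% (47.0 to 59.2%), and the 7 that fell had a median of 44.1% (40.7 to 54.0%), around a median of 49.6% over all 68. Over the 68 members the Spearman correlation of log2 change with GC content was 0.71 for WT_OL, 0.56 for KO_OL, 0.48 for WT_RL and 0.50 for KO_RL, each against its Basal group. Over 13901 genes of at least 1 CPM it was 0.60, 0.42, 0.45 and 0.37. Without WT_OL replicate 2 the values for WT_OL were 0.63 over the members and 0.50 over all these genes. These are descriptions across genes, which share the same libraries, and the comparisons of a genotype share their untrained mice. With each library corrected for its trend with GC content, the members called went from 5 to 2 in WT_OL, from 11 to 7 in KO_OL, from 13 to 8 in WT_RL and from 11 to 7 in KO_RL. No share over all genes is given for the corrected counts, so a loss particular to the members cannot be told from one over all genes. After this correction the changes in WT_RL were still called for Rims3, Syt12, Syt13 and Stx12 among those given above, and for Vamp1, described below. The result for Stx7 in WT_RL is not given here. Calls given above that it ended were those of Rims3 and Rims1 in WT_OL, of Syt3 and Stx12 in KO_OL, of Rims4, Syn1, Stx17 and Syt7 in WT_RL, and of Syn1, Stx17, Syt13, Syt3 and Syt4 in KO_RL.

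Promoter sequence was looked at for the members that moved in both genotypes. RefSeq (GRCm38.p6) start sites were at hand for 54 of the 68 members, 68 start sites in all, among them Syn1, Stx7, Stx12 and Stx17 but not Syt12, Syt13 or Rims4. The 250 bases before the start are given for Syn1, which rose, and for Stx12, Stx17 and Stx7, which fell, so that the upstream regions of genes that moved in opposite directions can be set side by side. Capitals mark the letters of the cyclic AMP response element TGACGTCA, the first part TTCAGCACC of the RE1 element to which the neuronal repressor REST binds, the E-box CACGTG, and the GC box GGGCGG, on either strand (on the other strand the last reads CCGCCC). The motifs do not overlap one another in these sequences. Syn1 lies at chrX:20920919-20921168 on the minus strand, Stx12 at chr4:132884459-132884708 on the minus strand, Stx17 at chr4:48124669-48124918 on the plus strand, and the first of the 2 Stx7 starts at chr10:24149039-24149288 on the plus strand.
Syn1: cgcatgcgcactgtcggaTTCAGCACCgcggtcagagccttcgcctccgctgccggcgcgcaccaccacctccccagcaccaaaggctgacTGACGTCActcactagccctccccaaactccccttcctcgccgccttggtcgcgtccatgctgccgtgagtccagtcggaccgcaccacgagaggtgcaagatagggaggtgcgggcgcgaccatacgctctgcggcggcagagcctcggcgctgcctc
Stx12: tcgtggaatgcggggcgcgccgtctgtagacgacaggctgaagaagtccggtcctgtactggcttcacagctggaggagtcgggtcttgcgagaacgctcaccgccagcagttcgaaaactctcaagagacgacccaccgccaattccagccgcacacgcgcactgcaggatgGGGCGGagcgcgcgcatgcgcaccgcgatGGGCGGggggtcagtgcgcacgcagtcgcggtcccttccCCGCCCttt
Stx17: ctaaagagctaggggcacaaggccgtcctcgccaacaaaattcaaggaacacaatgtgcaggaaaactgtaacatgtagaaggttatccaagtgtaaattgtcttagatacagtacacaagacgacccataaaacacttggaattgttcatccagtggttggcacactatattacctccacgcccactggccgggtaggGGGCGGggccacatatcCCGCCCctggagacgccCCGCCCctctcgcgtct
Stx7: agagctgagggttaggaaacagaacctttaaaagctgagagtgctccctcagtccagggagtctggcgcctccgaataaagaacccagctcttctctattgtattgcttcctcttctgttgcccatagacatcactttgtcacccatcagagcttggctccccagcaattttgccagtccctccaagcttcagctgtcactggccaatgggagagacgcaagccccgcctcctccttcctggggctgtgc
The Syn1 sequence held 1 cyclic AMP response element and 1 RE1 part, and no GC box. Stx12 and Stx17 each held 3 GC boxes, and the Stx7 sequence held none of the 4 motifs. Over the 32851 promoters of the table the cyclic AMP response element was found in 1.55%, the RE1 part in 0.301%, the E-box in 6.02% and the GC box in 32.7%. Over the 68 member promoters they were found in 2, 1, 9 and 44 sequences. Of the members, Syn1 and Stxbp3 held the cyclic AMP response element, and Stxbp3 was called in no comparison. GC boxes stood in members that rose (Rims3) and in members that fell (Stx12, Stx17) alike. A match of letters is not a binding site, and none was measured here.

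Between original and reversal learning a single member changed. In WT_RL against WT_OL Vamp1 rose, 1 of 68 where 0.261% of all genes were called. Vamp1 encodes synaptobrevin 1, a vesicle SNARE known from brainstem, spinal cord and fast-spiking neurons. It was at 121, 129.5 and 129.8 CPM in WT_Basal, at 131, 112 and 120.4 CPM in WT_OL and at 145, 212 and 247 CPM in WT_RL. Each WT_RL mouse was above all other mice of the series, replicate 1 by a small margin over the 135 CPM of the highest KO_RL mouse. The log2 change was 0.70 (SE 0.14, limma adjusted p = 0.0446) against WT_OL and 0.63 (SE 0.14, limma adjusted p = 0.00636) against WT_Basal. The first call was lost without any one of WT_OL replicate 1, WT_OL replicate 2, WT_RL replicate 2 or WT_RL replicate 3.

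Syt2 showed a like pattern. It was at 15.9, 12.9 and 17.6 CPM in WT_Basal, 19.4, 8.96 and 17.8 CPM in WT_OL and 20.6, 28.4 and 39.8 CPM in WT_RL, with a change against WT_Basal of 0.86 (SE 0.26, limma adjusted p = 0.0347) and against WT_OL of 0.92, which did not pass (limma adjusted p = 0.145) and was 0.60 without WT_OL replicate 2. The call against WT_Basal was lost without any one of 5 of the 6 libraries, and with the GC correction. Pvalb, the marker of fast-spiking interneurons, was at 29.1, 41.6 and 33.3 CPM in WT_RL and 36.2, 44.0 and 27.0 CPM in WT_OL, and 0 of 6 interneuron markers were called, with summed levels of 915 to 978 CPM and 755 to 924 CPM. Their log2 changes against WT_OL ran from -0.49 for Vip to 0.55 for Gad2, with 0.35 for Gad1 and -0.03 for Pvalb. Thalamic and habenular markers (Tcf7l2, Prkcd, Lef1 and Tac2) summed to 27.9, 44.6 and 72.8 CPM in WT_RL and to 35.3 to 42.2 CPM in WT_OL. Tcf7l2 alone was at 3.54, 11.6 and 22.0 CPM in WT_RL, in the same order over the 3 mice as Vamp1 and Syt2, and at 4.06 to 5.91 CPM in WT_OL. KO_OL replicate 3 had the highest such sum of all, 85.1 CPM, with Tcf7l2 at 10.9 CPM and Vamp1 at 111 CPM. The part of thalamic tissue in these changes was not tested.

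**Figure D5:**
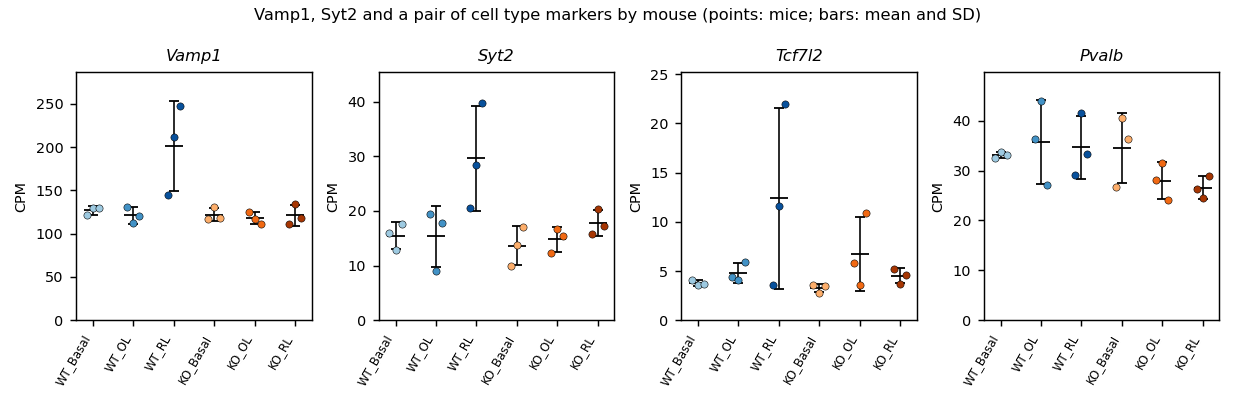
CPM of Vamp1, Syt2, the thalamic marker Tcf7l2 and the interneuron marker Pvalb in each mouse, by group, with bars for the mean and SD. Vamp1, Syt2 and Tcf7l2 are highest in WT_RL replicate 3 (247, 39.8 and 22.0 CPM), while Pvalb is not.

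In KO mice limma called 0 members in KO_RL against KO_OL, where 0.0196% of all genes were called, and 2 had an unadjusted p under 0.05 (4.81% of all genes). voom, the version of limma for counts, called 0 as well. Vamp1 was at 125, 117 and 111 CPM in KO_OL and 112, 135 and 118 CPM in KO_RL. The difference between the genotypes in the change of Vamp1 from original to reversal learning was -0.66 (SE 0.19), and it did not pass over all genes (limma adjusted p = 0.475).

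No member passed the test between the genotypes at any stage. In untrained mice limma called 0 of the 68 members in KO_Basal against WT_Basal, where 0.0196% of all genes were called, and 2 had an unadjusted p under 0.05 (4% of all genes), Syt15 and Stxbp3. Over the 14 core members the log2 differences lay between -0.12 (Syt1) and 0.26 (Stx1a), with 95% intervals of 0.13 to 0.46 to either side. A difference of that size would not have been detectable for every gene. After original learning 0 members were called in KO_OL against WT_OL, beside 0.0652% of all genes, while 13 (19.1%) had an unadjusted p under 0.05, a share that was 18% over all genes. Between the genotypes the mice of 13 members did not overlap when untrained and those of 15 did not after original learning, as for 14.7% and 16.5% of all genes. Syn1, at 492, 412 and 594 CPM in WT_OL and 605 to 701 CPM in KO_OL, did not overlap between these groups and differed by 0.38 (SE 0.12, limma adjusted p = 0.163), or 0.25 without WT_OL replicate 2. By contrast Sv2a, the target of the antiseizure drug levetiracetam, differed by 0.38 (SE 0.14, limma adjusted p = 0.208), at 389.7, 273 and 487 CPM in WT_OL and 478 to 493 CPM in KO_OL, with 1 WT_OL mouse inside the KO range, and by 0.15 without WT_OL replicate 2. The spread of these WT_OL values was wide, and without WT_OL replicate 3 the comparison called 15 members, and without WT_OL replicate 2 it called 0. No share over all genes is given for these 2 counts, so they cannot be read as particular to the members.

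After reversal learning 0 members were called in KO_RL against WT_RL, where 0% of all genes were called, and 3 had an unadjusted p under 0.05 (4.93% of all genes), namely Vamp1 (-0.69, SE 0.14), Syt2 (-0.67, SE 0.26) and Rab3b (0.33, SE 0.14), with limma adjusted p-values of 0.322, 0.908 and 0.956. Rab3b, a Rab3 form, was at 53.1, 50.5 and 32.1 CPM in WT_RL and 53.8, 58.8 and 54.5 CPM in KO_RL, and WT_RL replicate 3 held the low value. For the core members the differences lay between -0.10 (Snap25) and 0.16 (Unc13a). The test of the difference between genotypes in the change from Basal to OL called 0 members, with 6 at an unadjusted p under 0.05 beside 12.4% of all genes. The same test for the change from OL to RL called 0, with 3 beside 7.98%. In both, 0% of all genes passed. voom called 0 members in each of these comparisons between genotypes as well.

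Genes that work beside the members were counted on 4 further lists with 98 listed genes. Their calls come from the fit of all 18 libraries. Whether they hold with GC correction or without single libraries is not given here. In KO mice 31 of the 98 were called in KO_OL (22 higher) and 33 in KO_RL (25 higher), 31.6% and 33.7% beside 23.5% and 23.6% of all genes. In WT mice 11 were called in WT_OL (2 higher) and 23 in WT_RL (14 higher), 11.2% and 23.5% beside 9.5% and 15.7%. The medians over the 98 were 0.15, 0.11, 0.01 and 0.12 in the same order, and those over the 68 members were 0.07, 0.03, -0.06 and 0.01.

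Of 29 genes of the active zone and priming, 2 rose and 2 fell in WT_OL (13.8% called, beside 9.5% of all genes) and 8 rose and 3 fell in KO_OL (37.9% beside 23.5%). In WT_RL 7 rose and 1 fell (27.6% beside 15.7%), and in KO_RL 10 rose and 2 fell (41.4% beside 23.6%). In KO_RL the giant scaffold Bsn (0.79, SE 0.17, limma adjusted p = 0.00399), the scaffold Erc1 (0.57, SE 0.14, limma adjusted p = 0.00939) and Cacna1a, the pore of the P/Q-type calcium channel that drives release (0.56, SE 0.12, limma adjusted p = 0.00415), rose. Otof, a ferlin of hair cells, had the largest change of the list there, -1.20 (SE 0.41, limma adjusted p = 0.0432). In WT_RL Cacna1a rose by 0.46 (SE 0.12, limma adjusted p = 0.0208), the vesicle-bound Rab3 effector Rph3a by 0.42 (SE 0.11, limma adjusted p = 0.0137) and the calcium sensor Doc2b by 0.42 (SE 0.13, limma adjusted p = 0.0321), and the adaptor Lin7c fell by 0.46 (SE 0.10, limma adjusted p = 0.00710). After original learning Lin7c changed by -0.62 in WT mice (SE 0.10, limma adjusted p = 0.00184) and -0.40 in KO mice (SE 0.10, limma adjusted p = 0.0101).

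Vesicle endocytosis, which recovers the membrane after fusion, was represented by 32 genes. In WT mice 0 rose and 1 fell in WT_OL (3.13% called, beside 9.5% of all genes) and 4 rose and 1 fell in WT_RL (15.6% beside 15.7%). In KO mice 10 rose and 1 fell in KO_OL (34.4% beside 23.5%), and 11 rose and 1 fell in KO_RL (37.5% beside 23.6%). The AP-2 adaptor subunit Ap2a2 changed by 0.68 in KO_OL (SE 0.12, limma adjusted p = 0.000699) and 0.63 in KO_RL (SE 0.12, limma adjusted p = 0.00123), and in WT_RL by 0.45 (SE 0.12, limma adjusted p = 0.0148). Dnm1, the dynamin that pinches vesicles off, changed by 0.50 in KO_OL (SE 0.14, limma adjusted p = 0.0139), and the stonin Ston1 by 0.69 in KO_RL (SE 0.13, limma adjusted p = 0.00174). Fcho2, which helps to start clathrin pits, fell in all 4 comparisons, by 0.43 to 0.74 on the log2 scale. Snap91, the member with an endocytic role, was at 340.2 to 388 CPM in WT_Basal and 329.7 to 419.7 CPM in WT_RL and was called in none.

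On the list of 25 other vesicle proteins 0 rose and 6 fell in WT_OL, and 3 rose and 4 fell in KO_OL. In WT_RL 1 rose and 5 fell, and in KO_RL 2 rose and 4 fell. That is 24% to 28% called in each, beside 9.5%, 23.5%, 15.7% and 23.6% of all genes in the same order. Synpr, a relative of synaptophysin, fell in WT_OL (-0.61, SE 0.11, limma adjusted p = 0.00286), KO_OL (-0.80, SE 0.11, limma adjusted p = 0.000130), WT_RL (-0.57, SE 0.11, limma adjusted p = 0.00275) and KO_RL (-0.78, SE 0.11, limma adjusted p = 0.000159), while Syp itself was called in none. Sypl and the endosomal GTPase Rab5a fell in the same 4 comparisons. Of 12 genes of SNARE recycling, the clathrin-uncoating chaperone Hspa8 rose in KO_OL (0.55, SE 0.08, limma adjusted p = 0.000317), WT_RL (0.56, SE 0.08, limma adjusted p = 0.000601) and KO_RL (0.46, SE 0.08, limma adjusted p = 0.00123), and Snapin fell in the same 3. In WT_RL against WT_OL limma called 0 of the 98, beside 0.261% of all genes, with 17 at an unadjusted p under 0.05. No share over all genes is given for the latter count. In KO_RL against KO_OL limma called 0, beside 0.0196% of all genes, with 5 at an unadjusted p under 0.05 (4.81% of all genes).

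Across all 11 comparisons 49 of the 68 members were called in none. Among them were Syp, Snap25, Vamp2, Cplx1, Cplx2, Syt1, Rab3a, Unc13a, Sv2a and Stx1a of the 14 core members. Snap25 was at 2288, 2687 and 2409 CPM in WT_Basal, at 1715 to 2147 CPM in WT_OL and at 1899 to 2458 CPM in WT_RL. Its KO values were 2305 to 2671 CPM untrained, 1703 to 2117 CPM after original learning and 1872 to 2311 CPM after reversal learning, and its log2 changes of -0.33 in WT_OL (-0.23 without WT_OL replicate 2) and -0.32 in KO_OL did not pass (limma adjusted p = 0.137 and 0.1002). Vamp2 stayed between 853 and 1084.5 CPM in all 18 mice, and Cplx1 between 449.8 and 622 CPM.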

How the data were processed

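The authors sequenced poly(A) RNA from each hippocampus, mapped the reads with STAR 2.5.1 and computed CPM with the TMM scaling of edgeR 3.12.1 in R 3.3.0, and deposited log2 values for 15329 genes. The deposited log2 values were the logarithm of CPM + 1, since CPM recovered that way were whole multiples of 1 read for 100% of values (tolerance 0.1), whereas the methods describe a floor of 1 CPM. 1 read was worth 0.0274 to 0.0333 CPM, which sets the precision of low values. Strand use in the counting is not given in the sources used here.

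Groups came from the sample labels. All 15329 genes in all 18 libraries entered 1 limma 3.58.1 fit (R 4.3.3, statmod 1.5.0) of the 6 groups with a variance trend and 12 residual degrees of freedom, and p-values were adjusted over all genes by Benjamini-Hochberg. P-values set a difference of group means against the spread between mice within groups. Up to 12 called members per comparison with the largest changes were named, with 14 core members fixed by name and up to 4 called genes of each wider list. Stx7 in WT_RL, and members given without a call, were named after their values were seen. Length, GC content and positions came from GENCODE M21 (GRCm38), promoters from RefSeq. Alternatives changed the pseudocount, the low-value filter, scaling, GC trend, variance model, library weights, tool, replicate block and libraries used. Library weights used limma's gene-by-gene method because the default did not converge. The fit was tested on simulated data. The members, gene lists and tests were chosen with earlier results of these data known. Joins were made in pandas 2.3.3 with numpy 2.4.6 under Python 3.11.15, and plots in matplotlib 3.10.9. Results on 2 of the 68 members are not reported here by name or in the plots, and they stay in the counts.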

Additional observations from a re-analysis of the deposited data

Results flagged for a closer look

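For 2 members every KO mouse lay on one side of every WT mouse in the untrained groups and on the other side after original learning. Stx5a was higher in all KO_Basal than in all WT_Basal mice (log2 difference 0.11) and lower in all KO_OL than in all WT_OL mice (-0.27). Syt16 showed the same pattern, with 0.15 in untrained mice and -0.17 after original learning. Its separation after original learning was by a very small margin, with 74.89 CPM in WT_OL replicate 1 and 74.83 CPM in KO_OL replicate 1. Within WT_OL both genes were highest in replicate 2, Stx5a at 50.6 CPM and Syt16 at 88.0 CPM, and these differences include that library. The difference between the genotypes in the change from Basal to OL did not pass, at -0.38 for Stx5a (SE 0.10, limma adjusted p = 0.388) and -0.32 for Syt16 (SE 0.17, limma adjusted p = 0.409). Full separation of the mice in one direction or the other was seen for 14.7% of all genes in KO_Basal against WT_Basal and for 16.5% in KO_OL against WT_OL. The flip itself, full separation at both stages in opposite directions, was seen for 2.94% of the members and 1.08% of all genes.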

How the results depend on the processing

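Of 40 single changes past the threshold, 0 reversed under any alternative, 15 held under all 11 settings and every left-out library, 19 were lost with GC correction and 17 without some library. With GC correction the members called went from 5 to 2 for WT_OL, from 11 to 7 for KO_OL, from 13 to 8 for WT_RL and from 11 to 7 for KO_RL, each against its Basal group. Library weights gave 18 in WT_OL, 26 in KO_OL and 30 in KO_RL against Basal, 3 in WT_RL against WT_OL, 1 in KO_RL against KO_OL, 19 in KO_OL against WT_OL and 3 for the difference between genotypes in the change from Basal to OL. These weights were 7.03, 0.208 and 0.381 for WT_OL replicates 1, 2 and 3, so WT_OL rested mostly on replicate 1. Counts of members under the alternatives, here, above and below, carry no share over all genes. They do not tell a change in the members from one over all genes. With only the libraries compared in the fit, WT_OL against WT_Basal gave 0, KO_OL against KO_Basal 25 and WT_RL against WT_OL 0. The last comparison also gave 0 with CPM under 1 raised to 1 and without a variance trend. The cause was not tested.

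Leaving out 1 library at a time gave 3 to 13 for WT_OL against WT_Basal (3 without WT_Basal replicate 1 or WT_OL replicate 2, 13 without WT_OL replicate 3), 10 to 12 for KO_OL against KO_Basal, 7 to 17 for WT_RL against WT_Basal (7 without WT_Basal replicate 1) and 6 to 9 for KO_RL against KO_Basal (6 without KO_Basal replicate 1). It gave 0 to 12 for WT_RL against WT_OL (12 without WT_OL replicate 3), 0 to 15 for KO_OL against WT_OL (15 without WT_OL replicate 3), and 0 to 1 for KO_RL against WT_RL (1 without WT_RL replicate 1). The difference between genotypes ran from 0 to 3 for the change from Basal to OL (3 without WT_OL replicate 3) and from 0 to 1 for that from OL to RL (1 without WT_RL replicate 1).

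The replicate numbers did not pair the libraries, since same-numbered libraries correlated at -0.64 to 0.55 in their deviations from group means, above 0.1 in 12 of 45 pairs, and 7 of 18 libraries correlated best with their own number. With the replicate block the members called against Basal were 5 (WT_OL), 12 (KO_OL), 13 (WT_RL) and 8 (KO_RL), with 0 in WT_RL against WT_OL. The block with GC correction gave 2, 7, 7 and 9 in the same order, and 0 in WT_RL against WT_OL. Genes near 10 CPM, such as Rims4, rest on few reads, 280 to 735 in a library.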
